A study of Arabidopsis thaliana with 6 samples.

Results

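Disease resistance genes of the NLR family, with RPP4 and the pseudogene beside it at their centre, were followed through an RNA immunoprecipitation (RIP-seq) of the protein ASI1 in Arabidopsis thaliana. The set was chosen by gene identifier and holds 4 genes of the 6351 listed in either deposited table: RPP4 (AT4G16860), the pseudogene AT4G16870, RPS2 (AT4G26090) and AT5G41740. All 4 are listed in the ASI1 table and 3 are listed in both tables, since the WT table lists no RPP4. The samples were whole Col-0 seedlings aged 14 d, raised on 1% sucrose at 22 °C in a cycle of 16 h light and 8 h dark, and their crosslinking used 0.5% formaldehyde. RNA was recovered with an anti-Flag antibody from the ASI1 line (ASI1 RIP, n = 2) and from wild type (WT RIP, n = 2), and each genotype has 1 input library (ASI1 input and WT input, n = 1 each). The Flag tag on ASI1, and its absence in WT, is an inference from the antibody and the names of the groups. Nothing in the labels gives the promoter of the tagged protein, the number of lines, or whether replicates came from separate cultures. The p-values therefore reflect the spread between these libraries alone, which may be technical.

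NLR proteins are intracellular immune receptors that bind nucleotides through a central NB-ARC domain and end in leucine-rich repeats. Those with a TIR domain at the start (TNL class) signal through EDS1 with PAD4 or SAG101, while many of those with a coiled coil (CNL class) do not need EDS1. RPP4 is a TNL gene for resistance to the downy mildew Hyaloperonospora arabidopsidis, and RPS2 is a CNL gene that responds to the bacterial effector AvrRpt2 by way of RIN4. ASI1 is an RNA-binding protein known for its work with EDM2 on genes that carry heterochromatic repeats in introns, the NLR gene RPP7 among them.

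RPP4 lies on chromosome 4 (9488466 to 9495837, minus strand, TAIR10.1) within a cluster of TNL genes that also holds SNC1 and RPP5. Its longer transcript model has 6 exons and a first intron of 3158 bp (9492073 to 9495230), and its 3′ UTR of 118 bp is 9488466 to 9488583. AT4G16870 (9483955 to 9488397, minus strand, 4443 bp, no intron) begins 68 bp beyond the annotated end of RPP4 and is transcribed from the same strand. A stretch of 130 bp occurs on either side of AT4G16870 with 100% identity. One copy (9488459 to 9488588) contains all 118 bases of the RPP4 3′ UTR and 5 coding bases, and the other (9483836 to 9483965) contains 11 bases of AT4G16870 and 78 bases of the neighbouring gene AT4G16857. Direct repeats around an internal region, with a tRNA-complementary site just inside the first repeat, are the layout of long terminal repeat retrotransposons. The gap between RPP4 and AT4G16870 is shown because it joins both genes and holds such a match. It is written 5′ to 3′ on the minus strand of chr4:9488398-9488465, and the capitals mark the 12 bases complementary to the 3′ end of tRNA-Met with its CCA.
Gap between RPP4 and AT4G16870: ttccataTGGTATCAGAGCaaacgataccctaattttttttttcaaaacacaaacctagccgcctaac
The match begins at base 8 of the gap. Of 23 annotated tRNA-Met genes 8 have this 3′ end. The same 12 bases, searched on both strands, occur in 5 of 27444 windows of 68 bp downstream of protein-coding genes (0.0182%). This gap is among those windows, and the 12 bases were picked for their presence in it. The share is therefore a description and no test of how unusual the match is. The closest other sequence to AT4G16870 in the genome was AT1G44510 on chromosome 1, at 77.2% identity over 2254 bp.

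RPS2 lies on chromosome 4 as well (13224338 to 13227872, plus strand, 1 exon of 3535 bp). AT5G41740, annotated as a TIR-NBS-LRR gene, lies on chromosome 5 (16688626 to 16693119, plus strand), 712 bp before its relative AT5G41750. The P-loop, the nucleotide-binding motif of the NB-ARC domain, is shown as coding DNA because it is the sequence that the 3 NLR genes have in common. The capitals mark the codons of the first glycine and of the glycine, lysine and threonine or serine at its end.
RPP4, chr4:9491874-9491909, minus: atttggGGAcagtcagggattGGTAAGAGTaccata
RPS2, chr4:13225133-13225168, plus: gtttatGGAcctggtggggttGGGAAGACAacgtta
AT5G41740, chr5:16689426-16689461, plus: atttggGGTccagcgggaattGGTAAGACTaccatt
AT5G41750, chr5:16694776-16694811, plus: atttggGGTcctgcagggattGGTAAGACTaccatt
Over these 36 bases the TNL genes RPP4 and AT5G41740 share 28, RPS2 shares 22 with each of them, and the neighbours AT5G41740 and AT5G41750 share 33. RPS2 and AT4G16870 are the members whose reads can be placed best, since 100% of their 50-base windows over exons were unique in the genome. For AT5G41740 86.7% were unique, and for RPP4 70.9%, so part of the counts of both genes may belong to copies. With 100-base windows the shares were 95.5% and 90.3%, so the size of that part depends on the length taken. One exon of RPP4 is 88.5% identical to AT4G16960 and to AT4G16940 over 1180 bp, and one of AT5G41740 is 91.3% identical to AT5G41750 over 1407 bp.

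Levels below are expected counts (estimated reads per gene) scaled to CPM on the counts of a library outside ribosomal RNA (rRNA) genes, with the 95% Wilson interval of the share, which covers counting error only. Outside rRNA the ASI1 RIP libraries held 448561 and 362058 counts and the ASI1 input held 23810, while WT RIP held 23304 and 103549 and the WT input 61644. A single count is therefore 2.23 and 2.76 CPM in ASI1 RIP and 42.0 CPM in the ASI1 input, against 42.9 and 9.66 CPM in WT RIP and 16.2 CPM in the WT input. In both genotypes many genes were found in only one RIP library. Of genes with at least 20 counts in an ASI1 RIP library, 2087 of 3837 (54.4%) had under 3 in the other, against 719 of 989 (72.7%) in WT. The leaf genes CAB1, CAB3, RBCS1A and RBCS3B and the root gene PYK10 were listed in both tables, while the root gene AGP30 and the 3 seed storage genes were not listed. The summed level of these 5 listed markers was 9050 and 4528 CPM in ASI1 RIP and 18594 CPM in the ASI1 input, against 9786 and 27879 CPM in WT RIP and 31140 CPM in the WT input. CAB1 was the highest of them, followed by RBCS1A and RBCS3B, in mean ASI1 RIP level. Their part in the results below was not tested. In whole seedlings fewer cells of a type and less RNA per cell cannot be told apart.

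AT4G16870, the pseudogene, stood above the input in both ASI1 RIP libraries. It reached 5516 CPM (5303 to 5736) and 9296 CPM (8989 to 9615) in ASI1 RIP, against 3196 CPM (2551 to 3993) in the ASI1 input. In WT RIP it was listed at 0 in one library, which allows up to 129 CPM (3 counts), and reached 963 CPM (794 to 1174) in the other, against 552 CPM (395 to 771) in the WT input. All 3 ASI1 libraries were thus above all 3 WT libraries, inputs included, and their intervals did not overlap. Each ASI1 RIP library held 1.73 and 2.91 times the input level, and each WT RIP library 0 and 1.75 times. Pooled over replicates, ASI1 RIP held 9.14 times the WT RIP level (7.50 to 11.3, counting error only). Pooling weights the libraries by depth, and the unweighted mean RIP levels were 7406 CPM in ASI1 and 482 CPM in WT. The ASI1 input held 5.79 times the WT input level (3.81 to 8.95). The input ratio rests on 1 library a genotype and has no replicate check. Per kb of exon AT4G16870 ranked 28th and 12th of 4016 genes in the ASI1 RIP libraries and 64th in the ASI1 input.

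**Figure D1:**
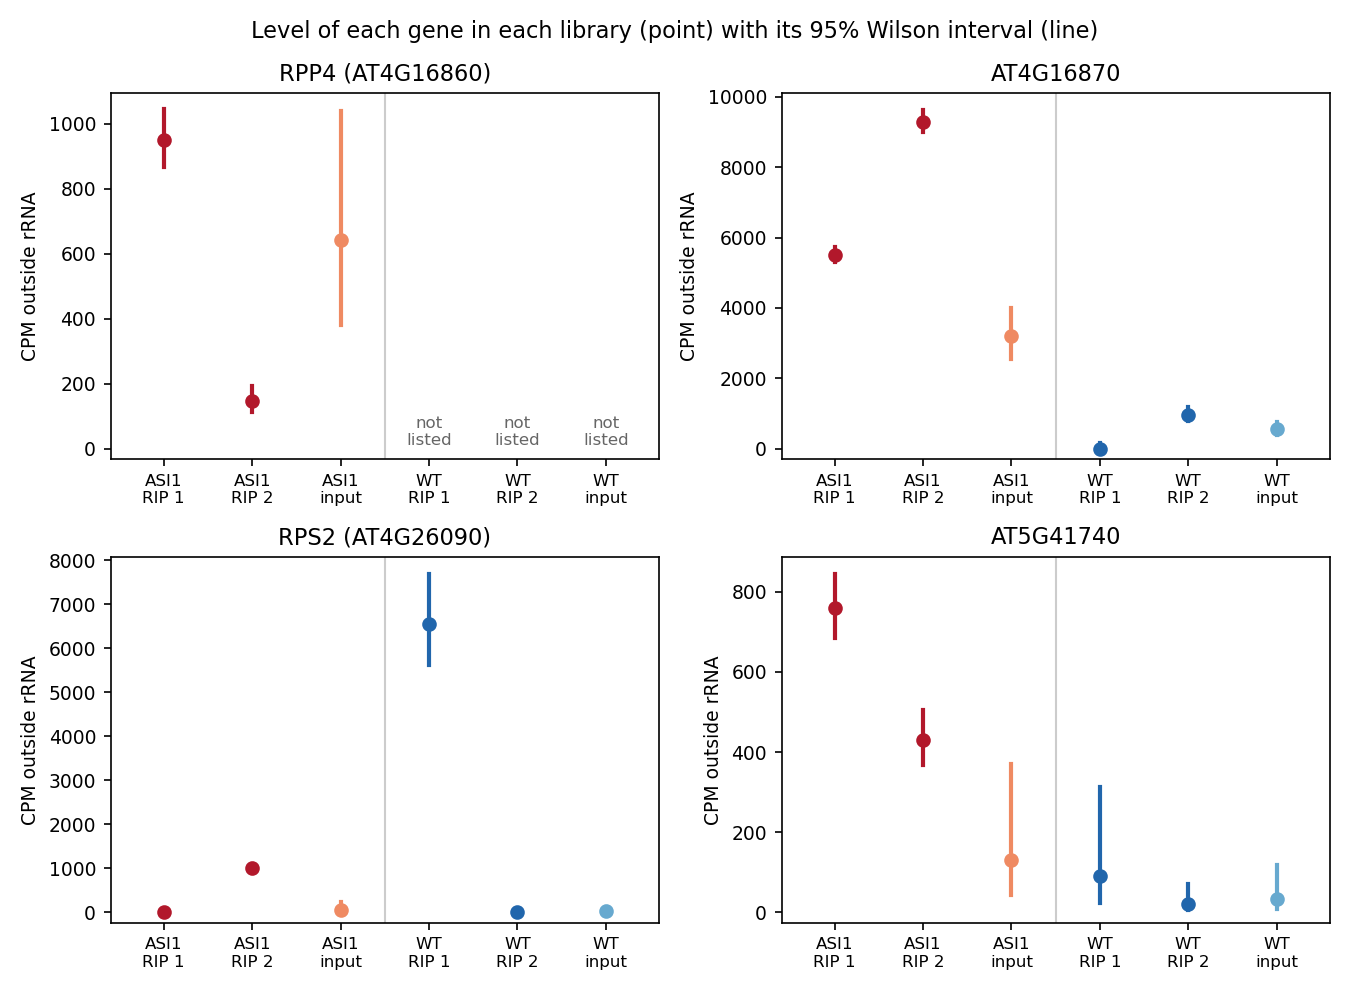
Level of each of the 4 genes in CPM outside rRNA (vertical axis, linear, a different scale in each panel) in each of the 6 libraries (horizontal axis, ASI1 left of WT); points are single libraries and lines their 95% Wilson intervals. AT4G16870 is higher in all ASI1 libraries than in all WT libraries, RPS2 is high in 1 RIP library of each genotype and at 0 in the other, and AT5G41740 is highest in the ASI1 RIP libraries.

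Among the 39 annotated pseudogenes listed in the ASI1 table AT4G16870 had the highest mean level in ASI1 RIP per kb of exon, at 1667 CPM per kb against a median of 67.7 for the set. AT3G43690 followed at 741 CPM per kb and AT1G58561 at 717 CPM per kb. AT1G58561 lies within the span of the NLR gene RPP7 (AT1G58602), on the same strand. In ASI1, 20 of the 39 pseudogenes (51.3%) had both RIP libraries above the input, against 949 of 4016 genes (23.6%). In WT, 12 of 30 listed pseudogenes (40%) did, against 720 of 4650 genes (15.5%), and AT4G16870 was not among them. None of the 30 reached 20 counts in both WT RIP libraries, and 2 did in 1 library. Genes are listed only when above 0 in at least 2 of the 3 libraries of a table. A listed gene at 0 in the input therefore has both RIP libraries above it, which fixes part of these shares. In the ASI1 input 3741 of 4020 listed genes were above 0, and in the WT input 4293 of 4654.

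RPP4 was recovered unevenly between the ASI1 RIP replicates. It had 951 CPM (866 to 1047) and 147 CPM (112 to 191) in ASI1 RIP, against 641 CPM (382 to 1039) in the ASI1 input, where the value rests on 15.3 counts. One RIP library was above the input by its point value, with intervals that overlap, and the other was below it, with intervals that do not. The first RIP library held 6.50 times the level of the second (4.88 to 8.82, counting error only). The WT table lists only genes above 0 in at least 2 of its 3 libraries, so RPP4 has no WT value and its ASI1 level has no background to be set against. RPP4 and AT4G16870 did not move together: AT4G16870 had the lower level in the RIP library where RPP4 had the higher one. Per kb of exon AT4G16870 held 5.26 and 57.4 times the level of RPP4 in the ASI1 RIP libraries, and 4.52 times in the ASI1 input.

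The rest of the cluster was sparsely listed. Of 23 identifiers taken along the cluster, 22 were in the annotation, 6 were listed in the ASI1 table and 3 in the WT table. SNC1 and RPP5, the TNL genes best known from it, were in neither. AT4G16910, a pseudogene, had 431 and 363 CPM in ASI1 RIP and 346 CPM in the ASI1 input, against 0 and 10.1 CPM in WT RIP and 33.4 CPM in the WT input. Its longest exon has 19 other matches in the genome, the longest at 91.2% identity over 2107 bp. Of its 50-base windows 94.4% were unique, and of its 100-base windows 99.1%, so a part of its counts may belong to copies. AT4G16980, an arabinogalactan-protein gene, had 697 and 237 CPM in ASI1 RIP and 86.4 CPM in the ASI1 input, against 0 and 1615 CPM in WT RIP and 117 CPM in the WT input. The RIP groups of AT4G16980 overlap. VRN2, a Polycomb protein of the vernalization response, had 0 and 170 CPM in ASI1 RIP and 86.4 CPM in the ASI1 input. AT4G16830, annotated as a hyaluronan and mRNA binding protein, had 21.0 and 0 CPM in ASI1 RIP and 130 CPM in the ASI1 input. The ASI1 input value of VRN2 rests on 2.06 counts and that of AT4G16830 on 3.09, and neither gene is listed in the WT table.

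**Figure D2:**
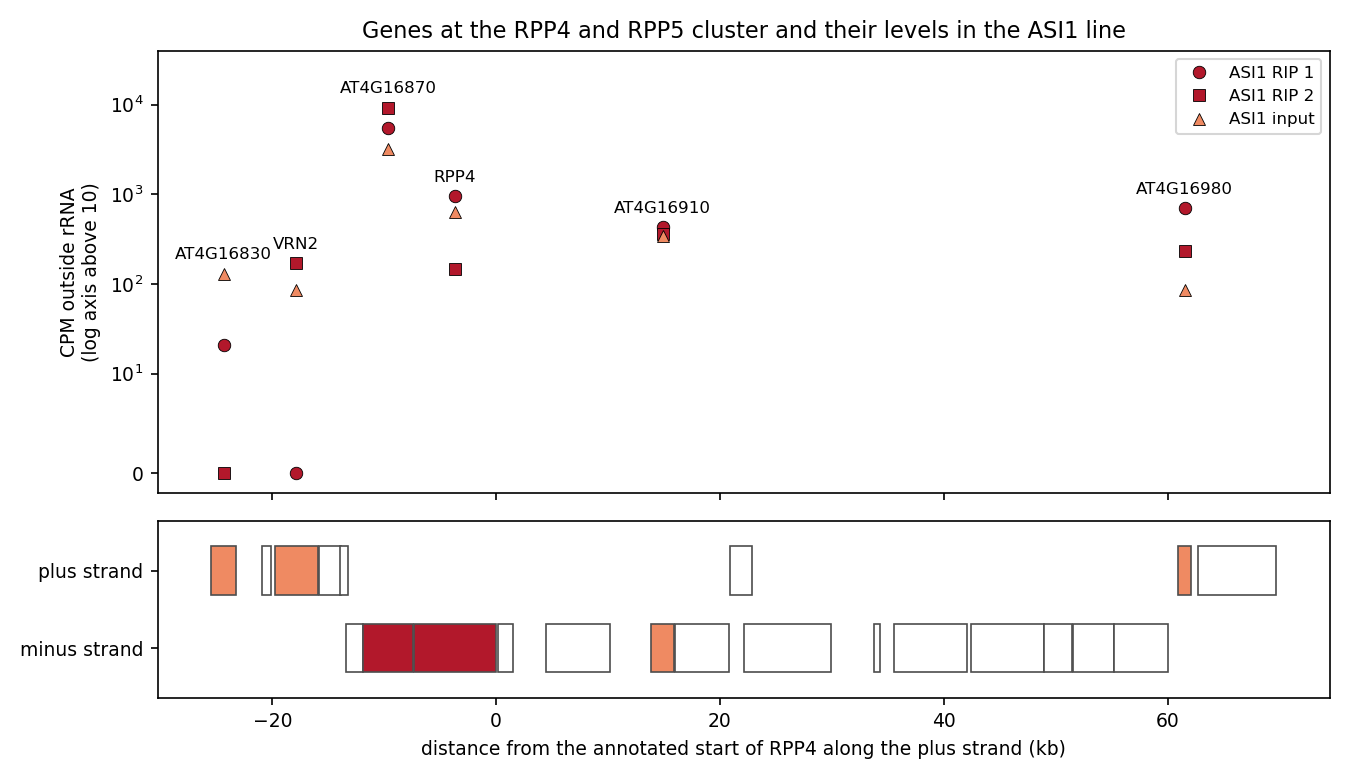
Genes of the RPP4 and RPP5 cluster by distance from the annotated start of RPP4 in kb (horizontal axis, lower panel: boxes by strand, red for RPP4 and AT4G16870, orange for other genes listed in the ASI1 table, white for genes not listed) with their levels in the 3 ASI1 libraries in CPM outside rRNA (upper panel, log axis above 10). AT4G16870 and RPP4 are adjacent boxes, AT4G16870 lies highest in all 3 libraries, and most boxes to the right of RPP4 are white.

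RPS2 was present in one RIP library of each genotype and at 0 in the other. It had 0 and 992 CPM (894 to 1100) in ASI1 RIP, against 43.2 CPM in the ASI1 input. WT RIP held 6555 CPM (5607 to 7687) and 0 CPM, against 33.4 CPM in the WT input. Its highest level was thus in a WT RIP library, from 153 counts, and the RIP groups overlap. The ASI1 RIP library with RPS2 was at least 148-fold higher than the limit that 0 counts allow in the other (3 counts per library, 6.69 CPM), and in WT the same bound was at least 226-fold (29.0 CPM). The ASI1 input held 1.03 counts of RPS2 and the WT input held 2.06, so every fold of RPS2 over input rests on 1 or 2 input counts. RPS2 is one of the 2087 ASI1 genes and one of the 719 WT genes that were recovered in a single RIP library.

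AT5G41740 was above the input in both ASI1 RIP libraries by its point values. It had 761 CPM (684 to 845) and 430 CPM (368 to 504) in ASI1 RIP, against 130 CPM (42.9 to 370) in the ASI1 input. The interval of the second RIP library overlaps that of the input. In WT it had 89.2 CPM (23.5 to 313) and 20.3 CPM (5.30 to 70.4) in WT RIP, against 33.4 CPM (8.90 to 118) in the WT input. Both ASI1 RIP libraries were above both WT RIP libraries, and the intervals did not overlap. Each WT value rests on about 2 counts (2.08 and 2.10 in WT RIP and 2.06 in the WT input), and the ASI1 input value on 3.08. Pooled over replicates, ASI1 RIP held 19.4 times the WT RIP level (7.55 to 71.6, counting error only). Pooling weights the libraries by depth, and the unweighted mean RIP levels were 595 CPM in ASI1 and 54.7 CPM in WT. The ASI1 input held 3.88 times the WT input level (0.445 to 46.5), an interval too wide to give a direction. Its neighbour AT5G41750, listed in the ASI1 table only, had 670 and 260 CPM in ASI1 RIP and 43.2 CPM in the ASI1 input, which is 1.03 counts. In both genes the first ASI1 RIP library was the higher one.

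By level per kb of exon, the order of the members in the first ASI1 RIP library was AT4G16870 at 1242, RPP4 at 236, AT5G41740 at 197 and RPS2 at 0 CPM per kb. In the second it was AT4G16870 at 2092, RPS2 at 281, AT5G41740 at 112 and RPP4 at 36.5 CPM per kb. RPP4 and RPS2 changed places between the libraries, while AT4G16870 and AT5G41740 kept theirs. In mean ± SD per kb over the ASI1 RIP libraries (n = 2), AT4G16870 had 1667 ± 602, AT5G41740 155 ± 60.7, RPS2 140 ± 198 and RPP4 136 ± 141 CPM per kb, so the 3 NLR genes do not differ beyond their spread. In WT RIP (n = 2) RPS2 had 927 ± 1311, AT4G16870 108 ± 153 and AT5G41740 14.2 ± 12.7 CPM per kb, and no neighbours in this order differ beyond their spread. In the inputs AT4G16870 was again first, at 719 CPM per kb in ASI1 and 124 in WT.

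In all, 4 comparisons were fitted across all genes with edgeR's quasi-likelihood test, with Benjamini-Hochberg adjustment over 2312 genes listed in both tables. Calls needed an adjusted p under 0.05 together with a log2 fold of 1 or more in either direction. No member was called in any of the 4. The share of all genes called was 0.0433% for ASI1 RIP over ASI1 input, 0.0433% for WT RIP over WT input, 0% for the difference of these enrichments and 0% for ASI1 RIP over WT RIP. At an unadjusted p under 0.05 the counts were 3, 7, 1 and 18 genes. Each is well below the share of 0.05 that such a cutoff gives when no gene differs. The edgeR test was thus conservative here, and the lack of calls says little about the members. DESeq2 called 2, 0, 0 and 6 genes, with 11, 62, 18 and 144 at an unadjusted p under 0.05. The fit rests on 2 residual degrees of freedom and a biological coefficient of variation of 1.48, and the single inputs are assumed to vary like the RIP libraries. The folds of all genes were centred away from 0, with medians of 1.12, -0.18, 1.10 and 1.30 on the log2 scale, so each member's fold is also given relative to its median. The comparisons share libraries with each other.

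For AT4G16870 the log2 fold was 2.34 (SE 2.77) for ASI1 RIP over ASI1 input, which is 1.22 relative to all genes. For WT RIP over WT input it was 1.27 (SE 2.61), or 1.45 relative to all genes, although the mean WT RIP level, 482 CPM, was below the input. That sign turned when scaled to counts outside rRNA (-0.16), with a replicate block (-0.38) and in the WT table alone (-1.42). The difference of the enrichments was 1.06 (SE 3.50), or -0.03 relative to all genes, so its sign depends on the scaling too. ASI1 RIP over WT RIP gave 3.16 (SE 2.18), or 1.85 relative to all genes, with an edgeR adjusted p of 0.950. Without the WT RIP library that held AT4G16870 the WT fold was -10.2, and without the second ASI1 RIP library the difference was -0.15.

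For AT5G41740 the log2 fold was 3.25 (SE 3.69) for ASI1 RIP over ASI1 input, which is 2.13 relative to all genes. WT RIP over WT input gave 1.57 (SE 3.54), or 1.75 relative to all genes. The difference was 1.68 (SE 4.79), or 0.58 relative to all genes, and ASI1 RIP over WT RIP was 3.17 (SE 2.81), or 1.86 relative to all genes, with an edgeR adjusted p of 0.950. It is the only member whose 4 folds kept their sign under every alternative run.

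RPS2 had the highest folds over input and the lowest between genotypes of the 3 members in this fit. Its log2 fold was 4.76 (SE 3.83) for ASI1 RIP over ASI1 input and 7.47 (SE 4.28) for WT RIP over WT input, or 3.65 and 7.65 relative to all genes. The difference was -2.70 (SE 4.56) and ASI1 RIP over WT RIP was -2.77 (SE 2.46), or -3.80 and -4.07 relative to all genes. Each of these rests on the single RIP library per genotype that held it, and those over input also on the 1 or 2 input counts. Without the second ASI1 RIP library the ASI1 fold was -5.42. Without the first WT RIP library the WT fold was -5.18, the difference was 9.95 and ASI1 RIP over WT RIP was 9.88.

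RPP4, with no WT values, was fitted in the ASI1 table alone, over 3930 genes with 1 residual degree of freedom. Its log2 fold of ASI1 RIP over ASI1 input was -0.68 (SE 1.38, edgeR adjusted p = 0.99986), and without the second RIP library it was 0.14. In that fit 13 genes (0.331%) were called, 2 higher and 11 lower, 96 genes had an unadjusted p under 0.05, and none of the 4 members was called. The leaf marker CAB1 was among the genes called lower, with a log2 fold of -2.13. AT4G16870 had a log2 fold of 0.71 (SE 0.54) there, AT5G41740 of 1.75 (SE 2.08), AT5G41750 of 2.97 and RPS2 of 3.04 (SE 2.91). In the authors' deposited table the log2 folds in ASI1 were -0.12 for RPP4, 1.33 for AT4G16870, 3.64 for RPS2 and 2.31 for AT5G41740, each with an FDR of 1. Their log2 folds in WT were 1.05 for AT4G16870, 6.43 for RPS2 and 0.87 for AT5G41740.

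**Figure D3:**
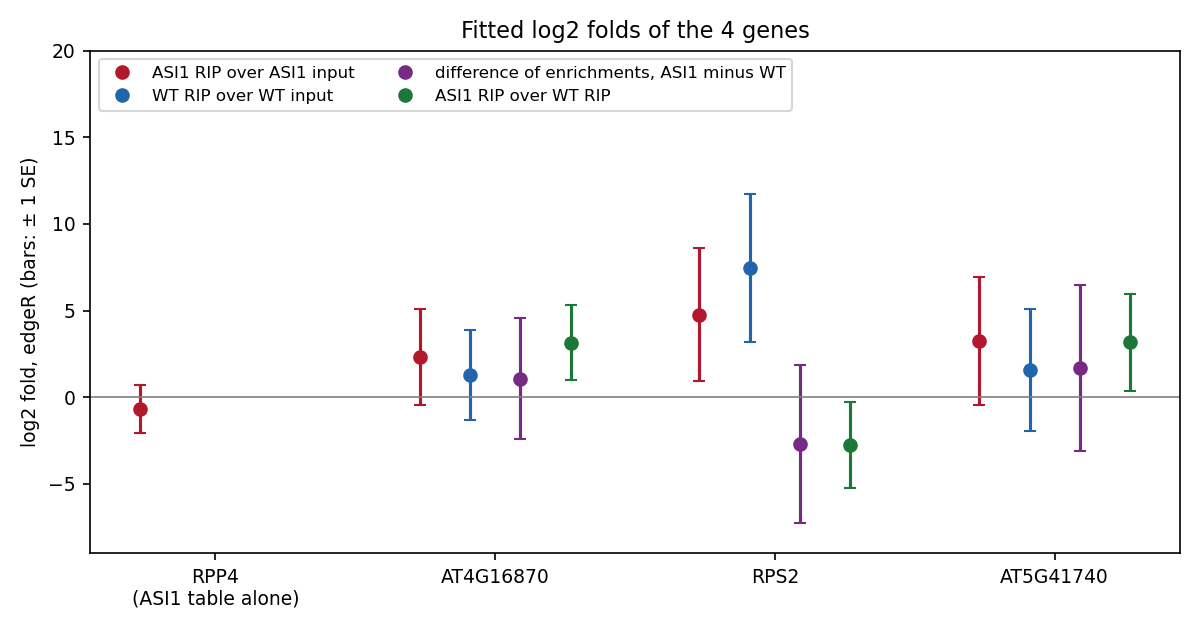
Fitted log2 fold (vertical axis, bars ± 1 SE) of the 4 genes in each comparison (colour; AT4G16870, RPS2 and AT5G41740 from the fit of all 6 libraries, RPP4 from the ASI1 table alone). SEs run from 1.38 to 4.79, and the points of AT4G16870 and AT5G41740 lie above 0 in all 4 comparisons while those of RPS2 lie above 0 over input and below 0 between genotypes.

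Of 162 genes whose annotation text names a disease resistance protein, NBS-LRR, NB-ARC or TIR-NBS, 32 (19.8%) were listed in the ASI1 table and 23 (14.2%) in the WT table, against 14.3% and 16.6% of all protein-coding genes. This set was drawn by words and 160 of it are protein-coding. It misses NLR genes whose annotation lacks these words, ZAR1, ADR1-L1, ADR1-L2 and AT4G19500 among them. It also holds the microRNA gene MIR472 and the transcribed pseudogene AT3G03855, of which only AT3G03855 is listed, in the WT table. Further genes in it that are not annotated as NLR proteins include RLP52, a receptor-like protein listed in neither table, and AT5G35180, annotated as an enhanced disease resistance protein and listed in both. They also include AT3G20610, annotated as a non-race specific disease resistance protein and listed in neither. AT1G61100, listed in both, is annotated as TIR class with no NBS or LRR named. Of the 32, 18 (56.3%) reached at least 20 counts in each ASI1 RIP library, against 1393 of 3931 protein-coding genes (35.4%). In WT RIP none of the 23 reached 20 counts in both libraries and 3 (13.0%) did in one, against 59 (1.29%) and 920 (20.1%) of 4587 protein-coding genes. These shares at 20 counts were not adjusted for exon length, and a longer transcript reaches a fixed count more easily. In ASI1, 8 of the 32 (25%) had both RIP libraries above the input, AT5G41740 among them, against 23.6% of all genes. In WT none of the 23 had both RIP libraries above the input and 16 (69.6%) had both below it, against 15.5% and 54.5% of all genes. Outside the set, ZAR1 had 133.8 and 983 CPM in WT RIP, both above its 133.7 CPM in the WT input. The first of these values rests on 3.12 counts. ZAR1, ADR1-L2 and AT4G19500 each reached 20 counts in the second WT RIP library, so these shares do not cover all NLR genes.

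Per kb of exon AT5G41740 had rank 2, RPS2 rank 4 and RPP4 rank 5 of the 32 in mean ASI1 RIP level. Their values were 155, 140 and 136 CPM per kb, against a median of 54.8 for the set. The first was AT1G58602, which is RPP7, at 206 CPM per kb. It had 1503 and 718 CPM in ASI1 RIP and 864 CPM in the ASI1 input, against 0 and 10.1 CPM in WT RIP and 351 CPM in the WT input. As for RPP4, one ASI1 RIP library of RPP7 was above the input and one below it. The 17 NLR genes in the fit had a median log2 fold of 1.34 for ASI1 RIP over ASI1 input, against 1.12 for all genes, and of -0.94 for WT RIP over WT input, against -0.18. For the difference the medians were 2.00 and 1.10, and for ASI1 RIP over WT RIP 2.90 and 1.30. The folds of ASI1 RIP over WT RIP were above 0 for 14 of the 17, against 67.5% of all genes. None of the 17 was called.

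**Figure D4:**
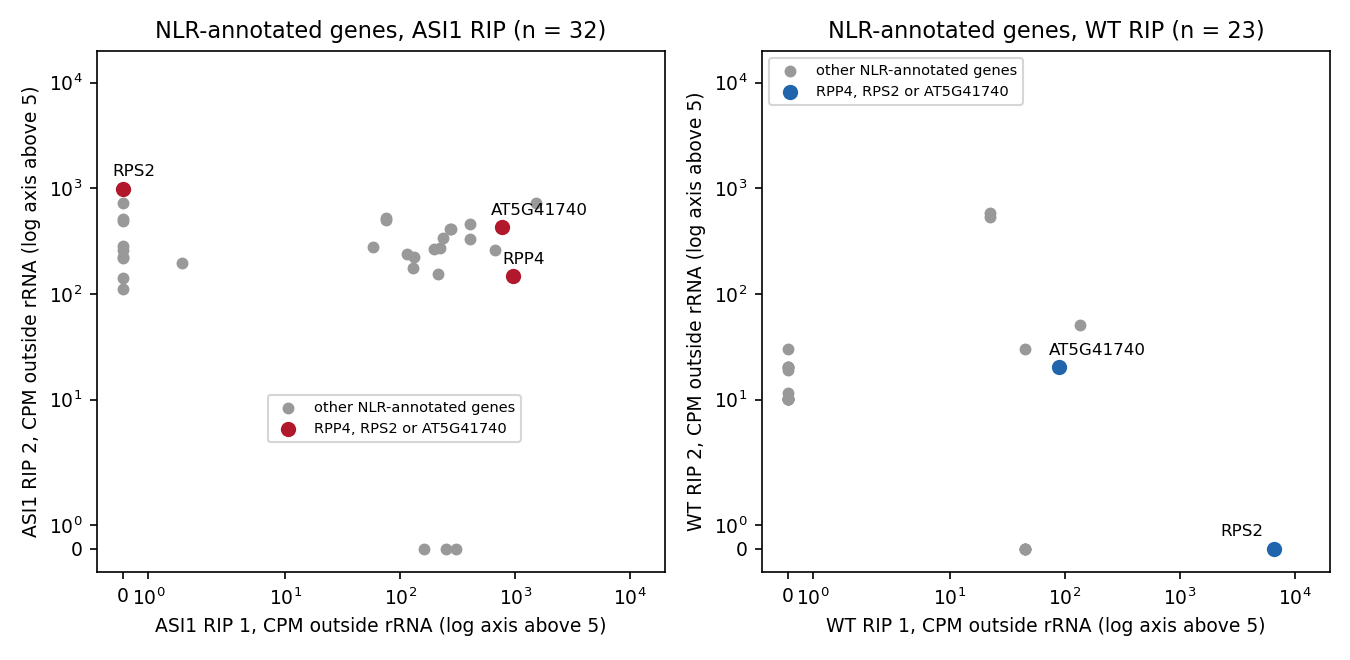
Level of each listed NLR-annotated gene in the first (horizontal) and second (vertical) RIP library in CPM outside rRNA (log axes above 5), with 32 genes of the ASI1 table on the left and 23 of the WT table on the right. RPP4 and AT5G41740 lie among genes with values in both ASI1 RIP libraries, and RPS2 lies on an axis in each genotype, at 0 and 992 CPM in ASI1 RIP and at 6555 and 0 CPM in WT RIP.

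Among 22 TNL genes taken by name, 9 were listed in the ASI1 table and 6 in the WT table. Of the 4 in the fit, all had folds of ASI1 RIP over ASI1 input above 0, against 75.2% of all genes, with a median log2 fold of 1.49 against 1.12. For WT RIP over WT input 1 of the 4 was above 0, against 46.2% of all genes, with a median of -0.84 against -0.18, and none was called in either. AT5G41740, RPP4 and AT5G41750 had the highest mean ASI1 RIP levels of this list in CPM. Of 15 CNL genes, 7 were listed in the ASI1 table and 6 in the WT table, and of the 5 in the fit none was called. RPP7, RPS2 and ADR1-L1 had its highest mean ASI1 RIP levels in CPM. ADR1-L1, a helper NLR, had 436 and 466 CPM in ASI1 RIP and 175 CPM in the ASI1 input, against 44.6 and 20.3 CPM in WT RIP and 100.3 CPM in the WT input.

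Of 23 genes that act with NLR proteins or downstream of them, 7 were listed in each table, and none of the 4 in the fit was called. PAD4, the lipase-like partner of EDS1, had 207 and 251 CPM in ASI1 RIP and 86.4 CPM in the ASI1 input, and is not listed in the WT table. SAG101, the other partner of EDS1, had 126 and 288 CPM in ASI1 RIP and was listed at 0 in the ASI1 input, against 0 and 10.1 CPM in WT RIP and 33.4 CPM in the WT input. The ASI1 input allows up to 126 CPM for a gene at 0 (3 counts), about the level of SAG101 in the first RIP library. CBP60G, a transcription factor for salicylic acid synthesis, had 0 and 387 CPM in ASI1 RIP and 86.4 CPM in the ASI1 input.

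Of 12 genes known from modifier screens of SNC1, the neighbour of RPP4, or from the complex they define, 6 were listed in the ASI1 table and 5 in the WT table, and none of the 5 in the fit was called. PRL1, a WD-repeat protein of that complex, had 413 and 2.88 CPM in ASI1 RIP and 43.2 CPM in the ASI1 input, against 89.2 and 10.1 CPM in WT RIP and 16.7 CPM in the WT input. MOS11, an mRNA export factor, had 275 and 136 CPM in ASI1 RIP and 216 CPM in the ASI1 input, against 89.2 and 10.1 CPM in WT RIP and 117 CPM in the WT input. RCY1, an arginine-rich cyclin, had 0 and 153 CPM in ASI1 RIP and 129 CPM in the ASI1 input, and is not listed in the WT table. The median log2 fold of ASI1 RIP over ASI1 input for this list was 0.56, below that of all genes.

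The genes whose pattern over the 6 libraries was most like that of each member were found by Pearson's r of log2(CPM + 1) among 1293 genes with at least 20 counts in at least 2 libraries. For AT4G16870 they were MYBL2 (r = 0.991), CYP71B20 (r = 0.990) and pEARLI4 (r = 0.989), which like it were at 0 in the first WT RIP library. For RPS2 they were AT1G75510 (r = 0.974), AT2G01690 (r = 0.969) and FBA8 (r = 0.932). AT1G75510 and AT2G01690 are at 0 in the same RIP library of each genotype as RPS2. For AT5G41740 they were LTP (r = 0.988), AT3G52470 (r = 0.983) and PETE1 (r = 0.979). These are descriptions over 6 libraries that differ in depth, chosen as the highest of many, and with a pseudocount of 10 only 1 of the 3 genes of AT4G16870 and 1 of RPS2 stayed, against 3 of AT5G41740.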

How the data were processed

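The authors deposited expected counts per gene, in 1 table per genotype with 3 libraries each. CPM, the log2 fold change of RIP over input, mean log2 CPM, a p-value and an FDR stand beside them in the deposited tables. The submitters' processing notes name STAR 2.6.0c, Salmon 0.10.2 and edgeR. What each tool did, the genome build and the strand setting of the counting were "not given in the sources used here", so antisense and overlapping genes cannot be told apart. A gene had to be above 0 in 2 or more of the 3 libraries of a table to be listed there.

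Names, coordinates and sequences come from TAIR10.1 (RefSeq), which matched 100% of identifiers. The 4 rRNA genes were left out of the denominator of levels. Expected counts were rounded and fitted with edgeR 4.0.16 (limma 3.58.1, R 4.3.3; TMM on listed totals, filterByExpr), using the 6 libraries and the genes of both tables, or the ASI1 table alone for RPP4. DESeq2 1.42.0 was an alternative. The fitting code was tested on simulated counts of equal depth and much smaller spread than these libraries have. That test checks the code and not what the fit can detect here. Copies were found with blastn 2.17.0 at an E-value of 1e-20. Listed counts ranged from 119916 to 6383274 per library. Python 3.11.15 was used for tables and plots.

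The members and gene lists were chosen with earlier results of these data known. Named were the 4 members, the listed cluster genes, the 3 genes of highest mean ASI1 RIP level in each other list, and the 3 genes most like each member. RPP5, SNC1, AT5G41750, AT4G16857, AT5G35180, MIR472, AT3G03855, RLP52 and the seedling marker genes without values were named outside this rule. So were ZAR1, ADR1-L2, AT4G19500, AT3G20610 and AT1G61100.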

Additional observations from a re-analysis of the deposited data

Results flagged for a closer look

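An opposite order of RIP and input was found in 4 of 15 named genes listed in both tables (26.7%). These 15 leave out the genes named for their likeness to a member. In the 4 genes both ASI1 RIP libraries lay above the ASI1 input while both WT RIP libraries lay below the WT input. These orders of single libraries are no test of the difference, and 279 of 2319 genes in both tables (12.03%) had the same pattern. In the first WT RIP library the 4 genes had 0 or 1.04 counts, and 3 counts there are 129 CPM, above the WT input level of AT4G16910 and SAG101 (33.4 CPM each) and of ADR1-L1 (100.3 CPM). For these 3 genes an order below the WT input is not detectable at that depth. Their order in ASI1 was not clear of counting error either. The ASI1 input interval was 170 to 663 CPM for AT4G16910, which spans both its RIP values. For ADR1-L1 it was 65.3 to 432 CPM, and its RIP intervals begin at 378 and 402 CPM. For SAG101 it reached 161 CPM, above the 126 CPM of its first RIP library. SAG101 was at 0 in the ASI1 input, so its order in ASI1 was fixed by the rule of listing. The pseudogene AT1G58561 had 3188 and 3372 CPM in ASI1 RIP and 1166 CPM in the ASI1 input, a mean difference of 2114 CPM. In WT it had 0 and 10.1 CPM in WT RIP and 267 CPM in the WT input, a mean difference of -262 CPM. It lies within the span of RPP7 on the same strand, and how far the counts of these genes are separate was not tested. AT4G16910, the pseudogene of the RPP4 cluster, had a mean difference of 51.8 CPM in ASI1 and -28.4 CPM in WT. ADR1-L1 had one of 276 CPM in ASI1 and -67.8 CPM in WT. SAG101 had one of 207 CPM in ASI1 and -28.4 CPM in WT. In the fit of all genes the edgeR adjusted p of the difference of enrichments was 0.99992 for all 4.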

How the results depend on the processing

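Member folds were recomputed 140 times under other settings: 129 kept their direction, 11 reversed, none passed the threshold, and the lowest adjusted p was 0.351. The cause of the reversals was not tested, beyond the library left out. Beside those in the report, the log2 fold of AT4G16870 for WT RIP over WT input was -0.16 when scaled to counts outside rRNA, -10.2 without the second WT RIP replicate and -1.42 in the WT table alone, and its difference was -0.15 without the second ASI1 RIP replicate and -0.035 centred on the median. Leaving out 1 RIP replicate moved the fold of RPP4 between -2.59 and 0.14, as a value with no test, since no residual degrees of freedom remain. With 1 replicate left out, the WT fold of AT4G16870 ran from -10.2 to 2.24. The folds of RPS2 ran from -5.42 to 4.77 in ASI1 over input, from -5.18 to 8.24 in WT over input, from -12.7 to 9.95 for the difference and from -12.8 to 9.88 for ASI1 RIP over WT RIP.

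Genes called for ASI1 RIP over ASI1 input (1) numbered 2 with DESeq2, 2 scaled to counts outside rRNA, 0 without an abundance trend, 13 in the table alone and 1 to 10 when 1 replicate was left out. Those for WT RIP over WT input (1) numbered 0 with DESeq2, 0 without a trend, 0 in the table alone and 1 to 4 with 1 replicate left out. The difference (0) had 1 centred on the median and 0 to 1 with 1 replicate left out. ASI1 RIP over WT RIP (0) had 6 with DESeq2, 1 centred on the median and 0 to 3 with 1 replicate left out. The deviations of same-numbered RIP libraries correlated at r = 0.0116, so the numbers were not taken as pairs; with a replicate block the counts were 1, 1, 0 and 0, and the WT fold of AT4G16870 was -0.38.

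With rRNA in the denominator the mean ASI1 RIP level over the ASI1 input was 28.6 for RPP4 (0.856 outside rRNA), 82.9 for AT4G16870 (2.32), 432 for RPS2 (11.5, from 1.03 input counts) and 159 for AT5G41740 (4.59), since rRNA held more of the input. With a pseudocount of 10, 1 of 3 most alike genes stayed for AT4G16870 and 1 for RPS2. The ASI1 input and the first WT RIP library, with 23810 and 23304 counts outside rRNA, limit what can be detected.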
